A study of Mus musculus with 9 samples.

Results

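The glutamine synthetase layer of mouse liver, cut out by laser, was compared with tissue scraped whole from the slide, to describe which transcripts were enriched in the captured cells. Arrays PV 1, PV 2 and PV 3 held RNA of the glutamine synthetase subcompartment of the hepatic acinus, a part of the perivenous region. Arrays SC 1, SC 2 and SC 3 held RNA of a scrape of all tissue on the slide. Arrays NPV 1, NPV 2 and NPV 3, used here to place the scrape, held captured cells of zones 1+2 of the acinus. The labels name no treatment, allele or strain for any group. Sex, age, the number of mice and the way the layer was recognised under the microscope are not stated there either. No label says which samples share an animal, so a p-value here reflects only how much these samples varied, and that variation may be technical. PV was set against SC in 3 pairs, each made of the arrays with the same number in the label and called a set below. Of 45281 probes on the array, 18192 (40.2%), for 12763 genes, had a detection p-value under 0.05 on at least 3 of the 6 PV and SC arrays and were analysed, and 27089 were not. Of those analysed, 14598 were detected on all 6 arrays.

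Blood crosses the liver lobule along hepatocyte plates that run between the portal tract and the central vein, and hepatocytes along the way carry out different tasks. Those at the portal end make urea from ammonium, while a sheath 1 or a few cells deep around the central vein takes up the ammonium that escaped and fixes it onto glutamate through glutamine synthetase. The pericentral programme, of which this sheath is the innermost part, is known to depend on Wnt ligands made by endothelial cells of the central vein, acting through beta-catenin and TCF/LEF transcription factors. A scrape holds the sheath together with all other hepatocytes and the liver's vascular, stromal and immune cells.

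Levels are given as log2 of normalised probe intensity, on which a difference of 1 means a doubling. An array detected between 16819 and 18721 probes (37.1% to 41.3%), and the array medians lay between 71.7 and 100.2 intensity units before normalisation. The arrays of set 3 stood apart: their levels correlated with those of sets 1 and 2 at r between 0.938 and 0.955 across probes, against 0.98 to 0.99 between arrays of sets 1 and 2. Arrays of a set deviated together, and the main test compared PV with SC within sets. Probes of different genes bind with different strength, so no gene's level is set against another's. In such bulk samples, fewer cells of a type and less RNA per cell cannot be told apart.

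The sheath stood out from scraped liver by a short list of higher transcripts and by no lower one. In limma's fit with the set as a block, 17 probes for 13 genes were higher in PV at an adjusted p under 0.05, which is 0.0934% of the probes analysed, and none was lower (0%). At an unadjusted p under 0.05, 592 probes were higher (3.25%) and 556 were lower (3.06%), so the directions were nearly balanced there. That balance belonged to quantile normalisation: 51.6% of these probes were higher with it and 94.9% with median scaling, which moved the median of all genes to 0.156, against -0.009. Differences below are best read relative to that median. The 17 differences lay between 0.94 and 1.74 on the log2 scale, and each of the 17 probes was higher in PV in all 3 sets. On 11 of them every PV array lay above every SC array, and on the other 6 the range of the groups overlapped because the level moved between sets. Over all probes, 302 had PV above SC without overlap (1.66%) and 350 had it below (1.92%).

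How many probes passed changed with the arrays used and with the pairing. Leaving out PV 1 left 0 probes higher, leaving out PV 2 left 1, and leaving out PV 3 left 33, while any SC array left out gave 0. It was also 0 without the block, with 132 probes higher and 87 lower at an unadjusted p under 0.05, and 0 in a fit of the 6 PV and SC arrays alone, with 522 higher and 442 lower. Without the block the adjusted p was 1 for Glul, 1 for Slc1a2 and 0.636 for Rdh9. In the fits compared probe by probe (no block, the 6 arrays alone and no set 3), the 17 probes were higher in PV. That is no separate check of direction. Dropping the block leaves the differences unchanged, and each of the 17 was already higher in every set.

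**Figure D1:**
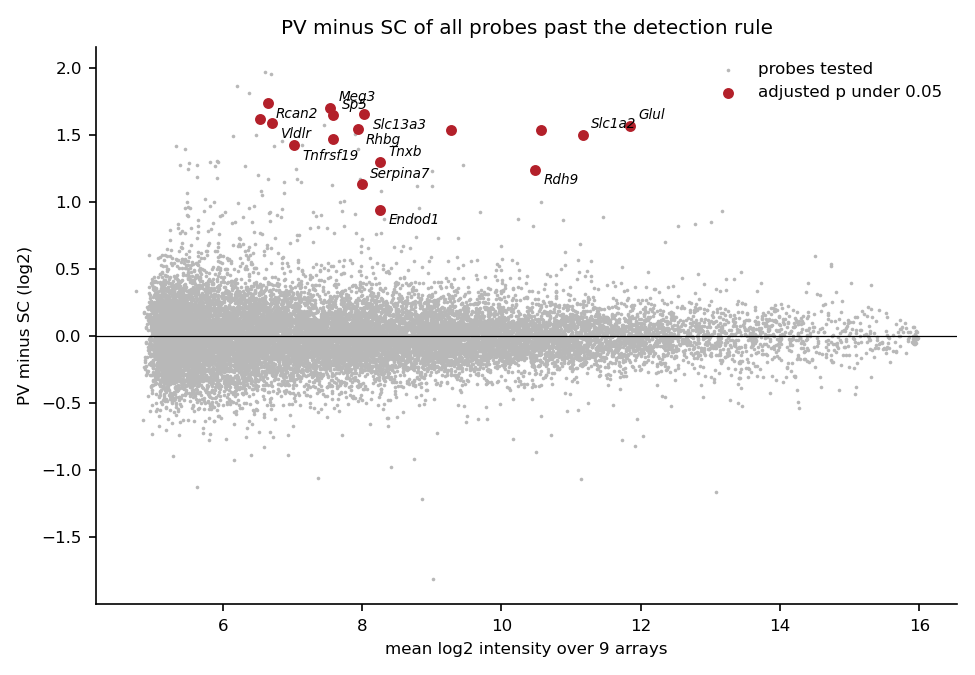
PV minus SC on the log2 scale (vertical) against the mean level (horizontal) of the 18192 probes analysed. The 17 probes past the threshold all lie on the side of PV, between 0.94 and 1.74, while the cloud of all probes is centred near 0.

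Glul, Slc1a2 and Rdh9 mark the layer and served as a check of the labels. Glul encodes glutamine synthetase, the enzyme for which the compartment is named. Its level was 13.73, 12.81 and 12.88 on PV 1, PV 2 and PV 3, against 11.58, 11.70 and 11.44 on SC 1, SC 2 and SC 3. PV averaged 13.14 ± 0.51 and SC 11.57 ± 0.13 (SD, n = 3 each), and no PV array came near an SC array. The difference was 1.57 ± 0.19 (SE), or 2.97-fold, with an adjusted p of 0.0427 in limma.

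Slc1a2 encodes the glutamate transporter GLT-1, which brings in the substrate of glutamine synthetase. Its level was 13.01, 12.94 and 11.63 on PV 1, PV 2 and PV 3, against 11.20, 11.58 and 10.29 on SC 1, SC 2 and SC 3. Both groups were lowest in set 3, and PV was above SC by 1.81, 1.36 and 1.34 in sets 1, 2 and 3. The mean difference was 1.50 ± 0.15 (SE), or 2.83-fold, with an adjusted p of 0.0144 in limma. All 3 probes of Slc1a2 passed, and the other probes both gave 1.54.

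Rdh9 encodes a short-chain dehydrogenase of the retinol dehydrogenase family. Its level was 11.59, 11.55 and 11.38 on the PV arrays, against 10.33, 10.41 and 10.07 on the SC arrays, with little spread in either group. The difference of 1.24 ± 0.13 (SE), or 2.36-fold, had an adjusted p of 0.0201 in limma. The 3 marker genes were therefore higher in PV in all 9 comparisons within a set, which fits the label of the captured layer.

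**Figure D2:**
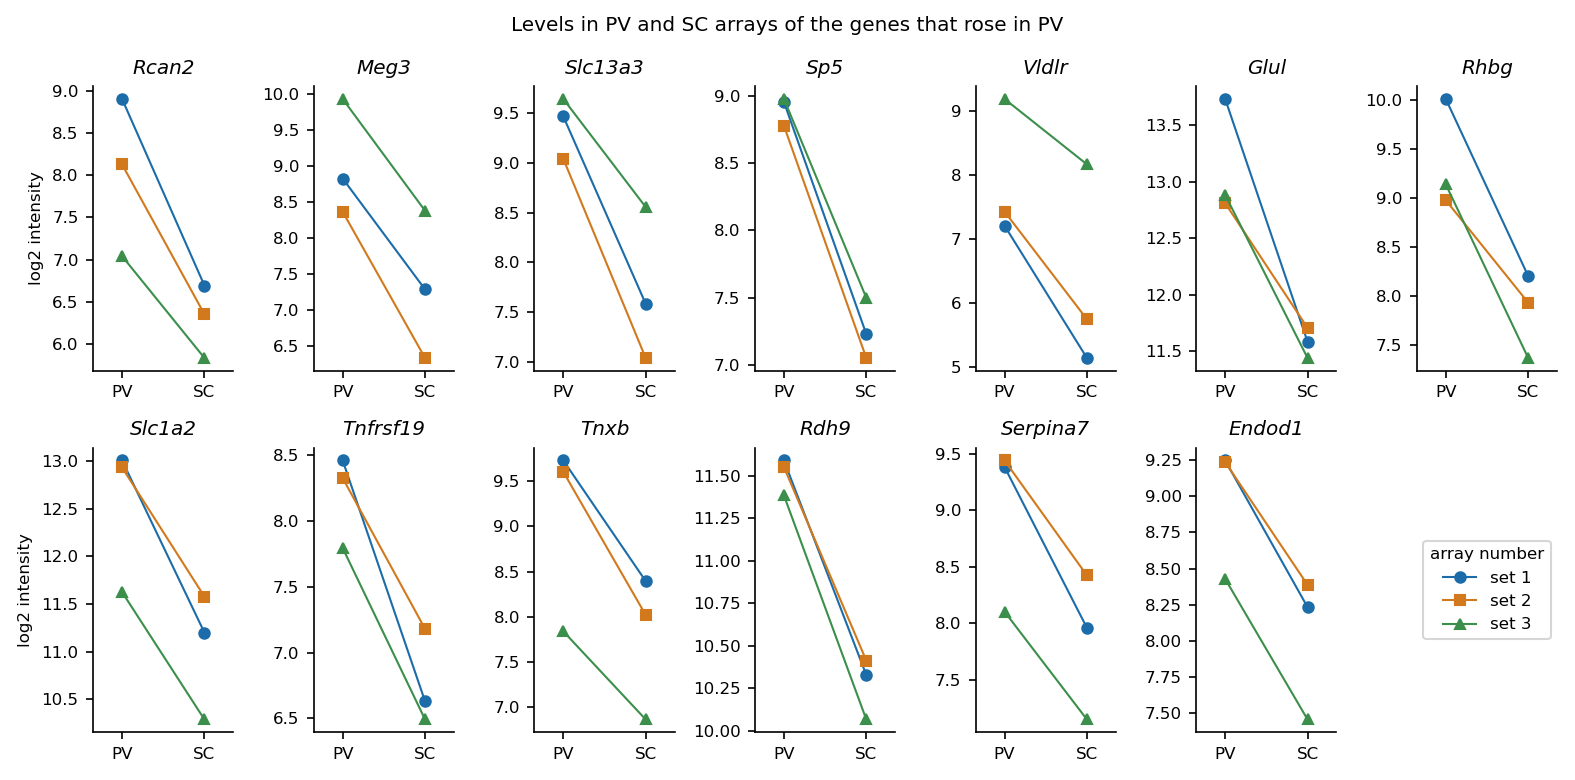
Level of each gene past the threshold (log2 intensity, vertical, 1 panel per gene with its own axis) on the PV arrays, left, and SC arrays, right, with lines joining the arrays of a set. Every line runs downward to SC, and the height of the lines differs between sets for genes such as Meg3, Tnxb and Vldlr.

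Ammonium and glutamate handling was represented by Glul, Slc1a2 and Rhbg, 3 of the 18 genes analysed on the list for glutamine, glutamate and ammonium, against 0.094% of all genes. This list and those below were chosen with earlier results of these data known. Their shares beside all genes are therefore descriptive and no independent test. Rhbg encodes an ammonium transporter of the Rhesus family. It read 10.01, 8.98 and 9.14 in PV, against 8.20, 7.93 and 7.37 in SC, so that the lowest PV array was above the highest SC array. The difference was 1.54 ± 0.17 (SE), or 2.91-fold (limma, adjusted p = 0.0205). The rest of the list did not pass. Oat, ornithine aminotransferase, whose reaction leads on to glutamate, was 15.27, 14.79 and 15.17 in PV and 14.54, 14.38 and 14.51 in SC. Those groups did not overlap, but the difference of 0.60 had an adjusted p of 0.347. The list as a whole had a median difference of 0.11, against -0.01 over all 12763 genes, with 12 genes above 0 and 6 below. Gls2, the liver-type glutaminase that releases ammonium in periportal cells, differed by -0.27 (adjusted p = 0.864). It is named here after its value was seen.

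Wnt pathway targets gave another group of higher genes. Of 17 genes listed as Wnt/beta-catenin targets, 12 were analysed and 5 (Apcdd1, Lef1, Myc, Rnf43 and Znrf3) did not pass the detection filter. Among the 12, 2 rose (over all genes, named by 1 probe each, 0.094% rose), 8 were higher at an unadjusted p under 0.05 (3.24% over all genes) and none was lower. Their median difference was 0.74 and 10 of the 12 were above 0. By set the median was 0.99, 1.11 and 0.33 in sets 1, 2 and 3.

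Sp5, a zinc finger transcription factor that is a direct target of beta-catenin, read 8.96, 8.78 and 8.98 in PV, against 7.23, 7.05 and 7.50 in SC. The arrays of each group lay close together and far from the other group. The difference was 1.64 ± 0.20 (SE), or 3.13-fold (adjusted p = 0.0383). Tnfrsf19, a TNF receptor superfamily member also known as Troy, read 8.46, 8.32 and 7.79 in PV, against 6.63, 7.18 and 6.49 in SC. Its groups were again apart, by 1.42 ± 0.15 (SE), or 2.68-fold (adjusted p = 0.0182).

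The common feedback targets leaned the same way without passing. Tbx3, a T-box repressor, was 8.27, 8.88 and 10.08 in PV and 7.26, 7.38 and 9.35 in SC. It was higher in PV within each set, by 1.08 on average (adjusted p = 0.0806), though set 3 was high in both groups. Axin2, a negative regulator of the pathway, was 6.80, 7.10 and 8.03 in PV and 6.04, 5.39 and 7.35 in SC, a difference of 1.05 (adjusted p = 0.210). Lgr5, the R-spondin receptor, differed by 0.90 (adjusted p = 0.292) and Nkd1, an inhibitor acting on Dishevelled, by 1.30 (adjusted p = 0.389), both added after their values were seen. Ccnd1, cyclin D1, and Fst, follistatin, were the 2 members below 0, at -0.35 and -0.28.

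Because Sp5, Tnfrsf19 and other called genes are known to lie near this pathway, the 250 bases before their start sites were searched for CTTTGA on either strand, the letters of a TCF/LEF core. The sequences come from RefSeq (build GRCm38.p6) and run 5′ to 3′ on the gene's strand, with matches in capitals. Shown are 3 called genes with a match and, for contrast, Glul, which had none.
Sp5, chr2:70474673-70474922, plus strand: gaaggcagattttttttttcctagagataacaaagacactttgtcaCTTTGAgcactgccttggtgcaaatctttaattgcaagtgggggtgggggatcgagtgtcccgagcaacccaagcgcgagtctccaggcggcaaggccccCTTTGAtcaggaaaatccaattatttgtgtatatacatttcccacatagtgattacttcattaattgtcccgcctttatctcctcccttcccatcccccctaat
Slc1a2, chr2:102706188-102706437, plus strand: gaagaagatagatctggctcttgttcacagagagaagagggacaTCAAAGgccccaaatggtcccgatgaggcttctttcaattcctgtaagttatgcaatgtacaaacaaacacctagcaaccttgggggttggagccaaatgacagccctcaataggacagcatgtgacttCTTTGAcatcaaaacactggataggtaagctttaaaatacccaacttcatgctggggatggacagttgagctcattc
Tnfrsf19, chr14:61037988-61038237, minus strand: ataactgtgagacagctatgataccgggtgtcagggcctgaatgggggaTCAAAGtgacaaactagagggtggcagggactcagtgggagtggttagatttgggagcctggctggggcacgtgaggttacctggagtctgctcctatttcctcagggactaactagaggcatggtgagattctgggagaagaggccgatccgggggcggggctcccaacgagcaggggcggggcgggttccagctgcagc
Glul, chr1:153899679-153899928, plus strand: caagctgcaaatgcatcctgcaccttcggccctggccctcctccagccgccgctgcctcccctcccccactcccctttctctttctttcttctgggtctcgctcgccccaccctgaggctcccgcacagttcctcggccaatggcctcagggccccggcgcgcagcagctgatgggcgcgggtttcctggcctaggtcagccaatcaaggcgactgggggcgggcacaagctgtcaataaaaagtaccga
Sp5 had matches starting 204 and 104 bases before the start site, Slc1a2 at 206 and 77 bases, and Tnfrsf19 at 201 bases. Meg3 had 1 at 52 bases. Of 13 called genes, 11 had a promoter in the table, and 4 of these 11 (36.4%) had a match, against 4280 of 27025 genes (15.8%). Counted by window, it was 4 of 17 (23.5%) against 4544 of 32851 (13.8%). A match describes letters in the window and no binding was measured here.

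The other called genes span transport, signalling and secreted proteins. Slc13a3 encodes a sodium-dependent dicarboxylate transporter. It read 9.47, 9.04 and 9.64 in PV, against 7.58, 7.04 and 8.56 in SC, and SC 3 was its highest scrape. The difference was 1.66 ± 0.21 (SE), or 3.15-fold (adjusted p = 0.0427), and its other probe gave 1.62 (adjusted p = 0.0137). Rcan2, a regulator of the phosphatase calcineurin, read 8.91, 8.13 and 7.04 in PV, against 6.69, 6.35 and 5.83 in SC. It had the largest difference of the 17 probes, 1.74 ± 0.22 (SE), or 3.33-fold (adjusted p = 0.0427), and its other probe gave 1.28 (adjusted p = 0.149). Endod1, an endonuclease-domain protein, had the smallest, at 0.94 ± 0.12 (SE), or 1.92-fold (adjusted p = 0.0427), with 9.25, 9.24 and 8.43 in PV and 8.23, 8.39 and 7.46 in SC.

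Meg3 is an imprinted long non-coding RNA expressed from the maternal chromosome. It read 8.83, 8.37 and 9.93 in PV, against 7.29, 6.34 and 8.38 in SC. The groups overlapped only because set 3 was high in both, and within sets PV led by 1.54, 2.03 and 1.55. The mean difference was 1.70 ± 0.15 (SE), or 3.26-fold (adjusted p = 0.0122). Its other probe gave 0.25 (adjusted p = 0.895), so the probes of Meg3 disagree.

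Vldlr, Serpina7 and Tnxb also passed and are named because they complete the 13. Vldlr, the very low density lipoprotein receptor, passed on 1 of 3 probes, with 7.21, 7.43 and 9.18 in PV, against 5.14, 5.75 and 8.16 in SC, where 2 of 3 arrays detected it. That probe differed by 1.59 ± 0.20 (SE), with an adjusted p of 0.0427, and the others by 1.51 (adjusted p = 0.103) and 1.42 (adjusted p = 0.134). Serpina7, thyroxine-binding globulin, read 9.39, 9.44 and 8.10 in PV, against 7.96, 8.42 and 7.15 in SC. Its difference was 1.13 ± 0.15 (SE), or 2.20-fold (adjusted p = 0.0427), and its other probe gave 0.99 (adjusted p = 0.252).

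Tnxb, tenascin-X, is an extracellular matrix protein of connective tissue. Its named probe read 9.73, 9.60 and 7.84 in PV, against 8.39, 8.02 and 6.87 in SC, a difference of 1.30 ± 0.17 (SE) (adjusted p = 0.0495). Of its 4 probes 2 passed, the other at 1.47 (adjusted p = 0.0427), and 1 stood at -0.28. Its zones 1+2 level was above SC by 0.19, whereas 15 of the 17 called probes had NPV below SC and both exceptions were of Tnxb. None of the 17 passed in NPV minus SC. The adjusted p in limma was 0.902 and 0.826 for the Tnxb probes and 0.266 at the lowest. Summed intensity of the 21 stellate cell and fibroblast genes analysed was 43120, 37214 and 28407 in PV, against 31896, 30209 and 31047 in SC. Their part in the Tnxb result was not tested.

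Among 35 listed pericentral hepatocyte genes, more leaned to PV than were called. Of 33 analysed, 5 rose (Glul, Slc1a2, Rdh9, Rhbg and Slc13a3), 19 were higher at an unadjusted p under 0.05 and none was lower. Over all genes 0.094% rose, and 3.24% were higher and 2.83% lower unadjusted. Ahr and Lect2 did not pass the filter. In 14 of the 33 every PV array exceeded every SC array, against 1.67% of all genes, and 32 of the 33 differences were above 0, with a median of 0.48. All 3 sets showed it, with medians of 0.60, 0.43 and 0.50, and 24 of the 33 (72.7%) were higher in PV in every set, against 10.9% of all genes. The list holds the marker genes and was chosen with earlier results of these data known, so these shares are no independent test.

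Several members came close to the threshold. Gstm3, a glutathione S-transferase, was 8.88, 8.32 and 9.36 in PV and 7.03, 7.28 and 8.06 in SC, without overlap, and differed by 1.40 (adjusted p = 0.0606). Its relative Gstm2 was 14.03, 13.92 and 13.79 in PV and 13.15, 12.73 and 13.06 in SC, again apart, by 0.93 (adjusted p = 0.103). The organic cation transporter Slc22a3 differed by 1.46 (adjusted p = 0.134), the phosphatase Lhpp by 1.12 (adjusted p = 0.0644) and Gulo, the last enzyme of vitamin C synthesis, by 0.82 (adjusted p = 0.103). These last 3 were chosen after their values were seen.

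Not every gene known as pericentral was enriched over the scrape. Cyp2e1, a cytochrome P450 of ethanol and drug metabolism, averaged 15.90 ± 0.05 in PV and 15.95 ± 0.04 in SC (SD, n = 3 each), a difference of -0.05. Those levels are among the highest on the arrays, where the response of a probe can flatten. Whether that held for this probe was not tested. Cyp1a2 differed by 0.33 (adjusted p = 0.804), and both were named after their values were seen. Of 45 cytochrome P450 and conjugating enzyme genes, 0 rose or fell at the adjusted threshold, 9 were higher and 2 lower at an unadjusted p under 0.05 (3.24% and 2.83% of all genes), and the median was 0.05. Cyp2c55 was the P450 with the smallest p, at 0.77 (adjusted p = 0.210).

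Genes of the portal end leaned the other way, by small amounts and without a call. Of 29 periportal hepatocyte genes analysed, none passed, 9 were lower at an unadjusted p under 0.05 (2.83% over all genes) and none was higher. Their median was -0.23, 27 of the 29 lay below 0, and 17 (58.6%) were lower in PV in every set, against 12.9% of all genes. In 4 of them every PV array was below every SC array, against 1.90% of all genes. The median difference was -0.37, -0.20 and -0.19 in sets 1, 2 and 3. With median scaling it was -0.12, with 21 of the 29 below 0 and 26 below the median of all genes.

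Cyp2f2, a periportal P450, was 14.66, 14.92 and 14.64 in PV and 15.22, 15.27 and 15.04 in SC, without overlap. The difference was -0.43 (adjusted p = 0.656). Hal, histidine ammonia-lyase, was 12.75, 13.28 and 12.76 in PV and 13.45, 13.56 and 13.21 in SC, a difference of -0.48 (adjusted p = 0.662). Etnppl, a phosphoethanolamine lyase, gave -0.56 (adjusted p = 0.683) and Fbp1, the gluconeogenic bisphosphatase, -0.36 (adjusted p = 0.727), each without overlap. The urea cycle followed with small values: by their named probes 7 of its 8 genes were below 0, with a median of -0.18, and none passed even unadjusted. With median scaling 4 of the 8 were below 0 and 7 below the median of all genes. Its first enzyme Cps1 gave -0.20 (adjusted p = 0.874), Ass1 -0.24 (adjusted p = 0.818) and Arg1 -0.23 (adjusted p = 0.848).

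**Figure D3:**
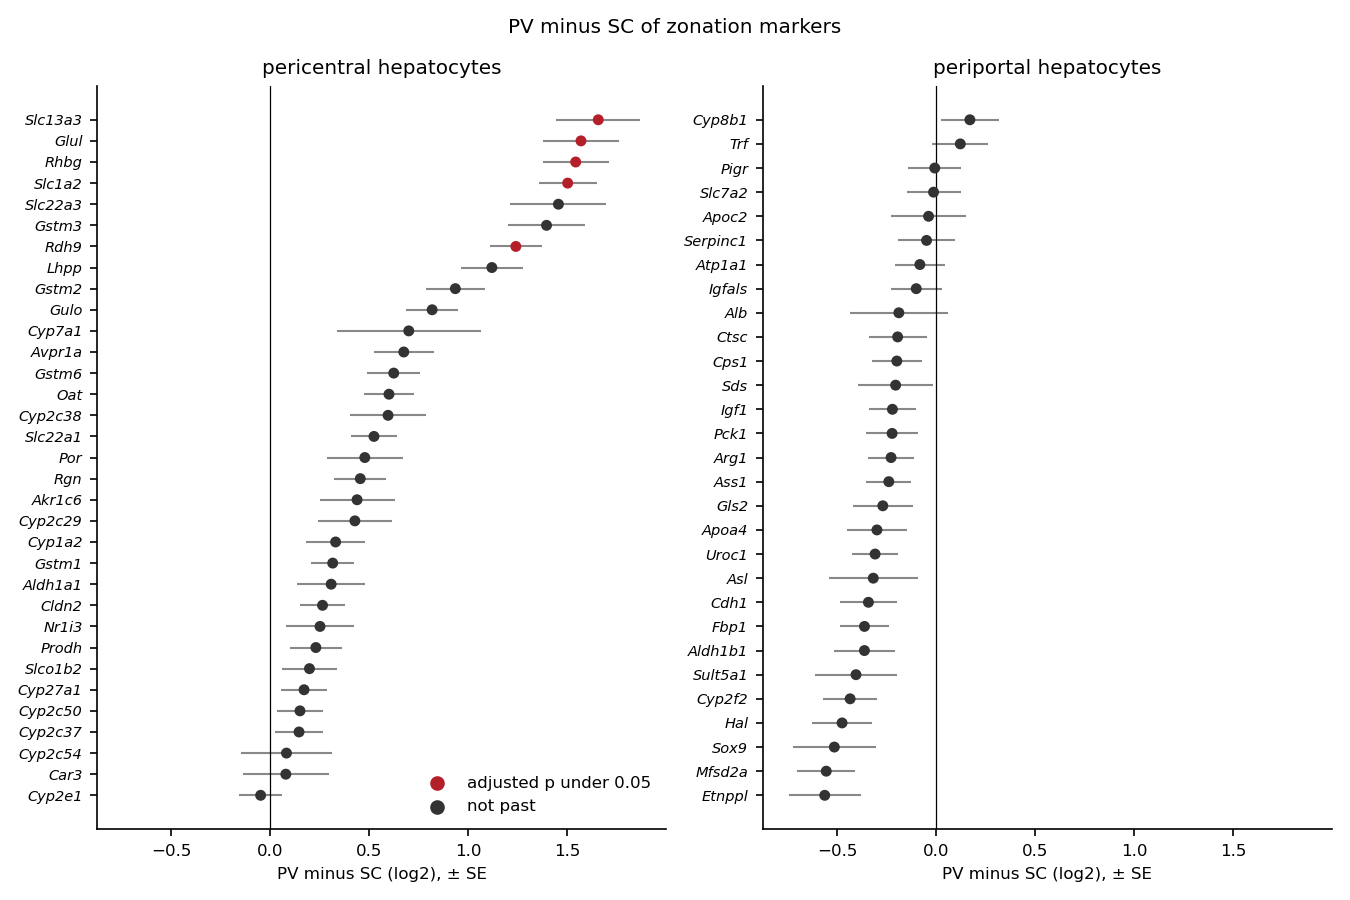
PV minus SC (log2 scale, horizontal) of each analysed gene of the pericentral list (left) and periportal list (right), as the fitted difference with bars of 1 SE, in red where the adjusted p was under 0.05. Pericentral genes lie to the right of 0 in 32 of 33 cases, and periportal genes to the left in 27 of 29 and nearer to 0.

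The captured zones 1+2 give the scrape a second neighbour. All 17 called probes also passed in PV against NPV, where 63 probes were higher (0.346%) and 1 lower (0.0055%). The comparisons share the PV arrays, so they are not independent. Glul was 13.73, 12.81 and 12.88 in PV, 11.09, 10.94 and 10.48 in NPV, and 11.58, 11.70 and 11.44 in SC. NPV was thus below SC in each set, by 0.74 on average, against a PV difference of 1.57. The difference between NPV and SC did not pass (limma, adjusted p = 0.631).

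On the linear intensity scale the place of the scrape between NPV (0%) and PV (100%) can be read for each set. For Glul it was 7.7%, 26.2% and 22.0%, a mean of 18.6% ± 9.7 (SD, n = 3). Slc1a2 stood at 22.3% ± 4.8 and Rdh9 at 19.7% ± 4.2. Of the 12 genes whose named probe passed (that of Vldlr did not), 11 had the scrape between both captured samples in all 3 sets. Their values ran between 2.3% and 36.0%, and their means between 13.7% for Sp5 and 24.5% for Rhbg. Tnxb was the exception at -19.1% ± 27.7, with the scrape below both. Since these genes were chosen for being higher in PV than in SC, a position under 100% follows from the choice.

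**Figure D4:**
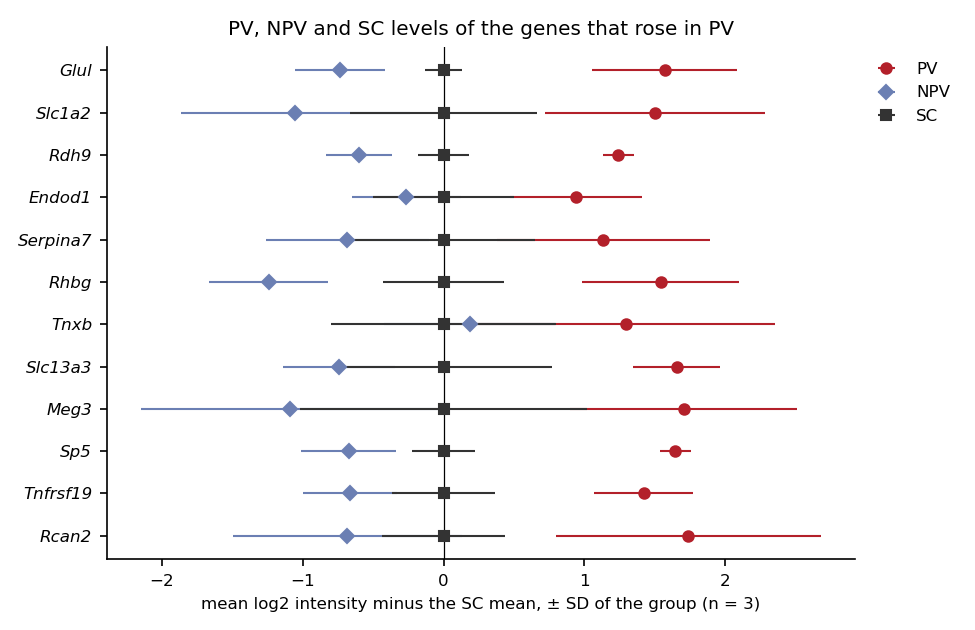
Mean level of PV, NPV and SC less the SC mean (log2 scale, horizontal), with bars of 1 SD of the group (n = 3), for the 12 genes whose named probe passed. For 11 of them the SC mean lies between those of PV and NPV, and for Tnxb it is the lowest.

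Among lower transcripts none passed, and the 10 genes with the smallest p differed by -0.46 to -1.06. mt-Nd5, a mitochondrially encoded subunit of complex I, was 7.82, 7.06 and 5.89 in PV and 8.94, 8.59 and 6.42 in SC. It was lower in each set, by 1.06 on average (a difference of -1.06), with an adjusted p of 0.332. The captured zones 1+2 were low as well: NPV minus SC was -0.77 (limma, adjusted p = 0.657) and PV minus NPV -0.29 (adjusted p = 0.743). Cryl1, lambda-crystallin, an L-gulonate dehydrogenase, was 9.40, 9.66 and 9.82 in PV and 10.34, 10.28 and 10.56 in SC. Its groups did not overlap, and it differed by -0.77 (adjusted p = 0.441). Bdh2, a cytosolic dehydrogenase, gave -0.51 (adjusted p = 0.493), Abraxas2 -0.52 (adjusted p = 0.392), Nrg4, a secreted neuregulin, -0.61 (adjusted p = 0.415), and Piezo2, a mechanically gated channel, -0.64 (adjusted p = 0.353). The named probe of Piezo2 was detected on 2 of 3 PV arrays, and its other probe gave -0.07 (adjusted p = 0.972). Txlna, Sdr9c7 and Tecpr2 gave -0.50, -0.46 and -0.57. Tecpr2 was also lower in NPV than in SC, by -0.51, with PV minus NPV at -0.06. NPV minus SC was -0.26 for Piezo2, -0.23 for Txlna and -0.04 for Abraxas2. It was above 0 for Cryl1 (0.10), Nrg4 (0.08), Sdr9c7 (0.07) and Bdh2 (0.04). Prss3, a trypsinogen, was not above background on any PV array and was detected on all 3 SC arrays. It entered through SC alone, so its difference is not counted as a result. Across the 12763 genes, 213 had PV above SC without overlap (1.67%) and 243 had it below (1.90%).

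Markers of other cell types show what else the cut and the scrape held. Central vein endothelial genes, 6 of 7 analysed with Wnt9b not past the filter, were all above 0 with a median of 0.53, and 3 were higher at an unadjusted p under 0.05 (3.24% of all genes), though none passed. Lhx6, a LIM homeobox factor, was 6.27, 5.82 and 6.91 in PV and 5.76, 4.84 and 6.20 in SC, a difference of 0.73 (adjusted p = 0.472). It was detected on 2 of 3 SC arrays, and its level on SC 2 is below the lowest detected on that array, 5.24. Cdh13, T-cadherin, gave 0.80 (adjusted p = 0.503) and Wnt2, a Wnt ligand, 0.48 (adjusted p = 0.757). Rspo3, the R-spondin of the central vein, gave 0.04, and it was chosen after its value was seen. The summed intensity of the list was 2229, 1499 and 388 in PV, against 968, 1246 and 359 in SC, so that the excess was largest in set 1 and slight in set 3. The medians by set were 0.80, 0.31 and 0.01. Endothelial genes of the sinusoids and of vessels in general had a median of -0.04 over 20 genes (0.12 with median scaling), with 1 higher and 2 lower at an unadjusted p under 0.05 (3.24% and 2.83% of all genes). The higher one was Vwf, von Willebrand factor of large vessels, at 9.92, 9.02 and 7.12 in PV and 7.59, 7.46 and 6.28 in SC, a difference of 1.58 (adjusted p = 0.344). The lower ones were Fcgr2b at -0.36 (limma, adjusted p = 0.703) and Ehd3 at -0.35 (adjusted p = 0.759). Of the 20 genes, 8 (40.0%) were lower in PV in every set, against 12.9% of all genes. Only 1 (5.0%) was higher in every set, against 10.9% of all genes.

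Smooth muscle genes differed between sets, with median differences of 1.83, 0.61 and -0.13 in sets 1, 2 and 3. In every set 3 of 6 genes were higher in PV, against 10.9% of all genes. Of 10 listed, 6 were analysed (Cnn1, Lmod1, Myh11 and Tagln did not pass the filter), and their summed intensity was 18580, 2489 and 2696 in PV, against 4189, 1893 and 2826 in SC. Acta2, smooth muscle actin, was 13.39, 9.26 and 7.98 in PV and 10.29, 8.16 and 8.35 in SC, a difference of 1.28 (adjusted p = 0.795) that came mainly with PV 1 and turned round in set 3. Actg2 was 11.37, 5.13 and 5.37 in PV and 7.27, 4.54 and 4.62 in SC (adjusted p = 0.662). Stellate and fibroblast genes had a median of 0.22 over 21 genes, 0.34, 0.36 and -0.12 by set, with 4 higher and 1 lower at an unadjusted p under 0.05 (3.24% and 2.83% of all genes). Col3a1, a fibrillar collagen, was 11.07, 10.08 and 7.48 in PV and 9.12, 9.35 and 6.80 in SC, a difference of 1.12 (adjusted p = 0.503). In set 3 Vwf and Col3a1 were higher in PV by 0.84 and 0.69. Of the smooth muscle genes, Actg2 and Myl9 were higher there by 0.75 and 0.04, while Acta2 and Tpm2 differed by -0.37 and -0.46. Actg2 was detected on 1 of 3 SC arrays, and its level on SC 3 is below the lowest detected on that array, 5.05. The part of vessel wall cells in the PV result was not tested.

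Other non-hepatocyte lists showed no call. Kupffer cell and macrophage genes had a median of 0.03 over 18 genes, and their summed intensity was 11745, 10111 and 7918 in PV, against 11584, 12676 and 5429 in SC. Cd74, the invariant chain of MHC class II, was the only one of them at an unadjusted p under 0.05, at 0.53 (adjusted p = 0.494). Of the 18 genes, 10 were above 0 and 8 below. Those below included Folr2 at -0.42 (limma, adjusted p = 0.851), C1qa at -0.28 (adjusted p = 0.859) and Aif1 at -0.21 (adjusted p = 0.898). Bile duct genes were present in part, with 10 of 17 analysed and the keratins Krt7 and Krt19 and Epcam not past the filter, and their median was -0.21. Krt23 and Sox9 gave -0.60 (adjusted p = 0.503) and -0.51 (adjusted p = 0.762). Red blood cell genes lay below 0 in 6 of 6 cases with a median of -0.27 (4 of 6 with median scaling), including Hbb-b1 at -0.38 (adjusted p = 0.646), and their median was also below 0, at -0.24, in NPV against SC. Lymphocyte genes had a median of -0.06 over 9 of 20 listed, and the 4 neutrophil genes -0.04 (0.01 and 0.07 with median scaling). Of 8 mesothelial genes listed 1 was analysed, Gpm6a, at 1.30 (adjusted p = 0.770), detected on 2 of 3 PV and 2 of 3 SC arrays.

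**Figure D5:**
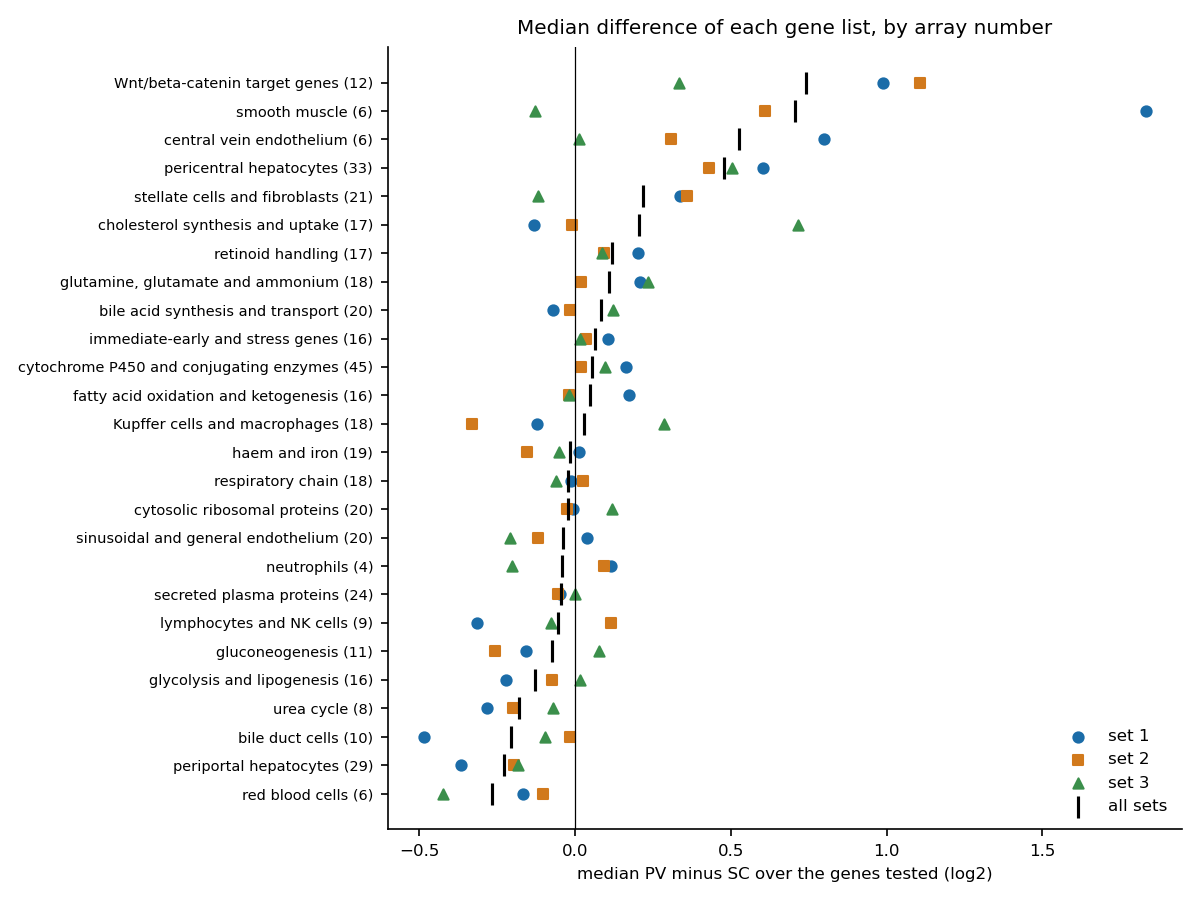
Median of PV minus SC (log2 scale, horizontal) of each gene list with more than 1 gene analysed, as 1 point for each of the 3 sets and a bar for all sets, with the number of genes in brackets. Pericentral and Wnt target lists are above 0 in all sets, as are the glutamine, P450, retinoid, central vein endothelium and immediate-early lists. The periportal list is below 0 in all sets, as are the urea cycle, bile duct and red blood cell lists. Smooth muscle and cholesterol lists differ widely between sets.

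The remaining metabolic lists held only Rdh9 as a call, on the retinoid list (17 genes, median 0.12). Cholesterol synthesis and uptake genes had 16 of 17 above 0 and a median of 0.20, but the median was -0.13, -0.01 and 0.71 in sets 1, 2 and 3, so the excess was that of set 3. Nsdhl, a sterol dehydrogenase, was 9.10, 8.83 and 9.75 in PV and 8.74, 8.58 and 8.82 in SC (adjusted p = 0.656), and Lss, lanosterol synthase, was 10.04, 9.36 and 11.40 in PV and 9.75, 9.28 and 10.29 in SC (adjusted p = 0.779). Cyp7a1, the rate-limiting enzyme of bile acid synthesis, was 11.69, 12.59 and 14.38 in PV and 11.62, 12.33 and 12.62 in SC, a difference of 0.70 (adjusted p = 0.848), and again set 3 was the one apart. Bile acid genes had a median of 0.08 over 20.

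Lists of energy and housekeeping functions mostly lay near the median of all genes. With median scaling the signs of the respiratory chain, ribosomal, gluconeogenesis, glycolysis and haem lists turned to above 0 with it. Secreted plasma proteins stayed below 0, at -0.025. Relative to the median of all genes they then stood at -0.18, with 22 of 24 genes below it. Glycolysis and lipogenesis stood at -0.15, with 12 of 16 below. The respiratory chain (18 genes) and cytosolic ribosomal proteins (20 genes) each had a median of -0.02, with none past even an unadjusted p under 0.05. Fatty acid oxidation and ketogenesis (16 genes) had 0.05, secreted plasma proteins (24 genes) -0.05, gluconeogenesis (11 genes) -0.07, glycolysis and lipogenesis (16 genes) -0.13, and haem and iron (19 genes) -0.02. Immediate-early and stress genes, which can respond to handling of the tissue, had a median of 0.06 over 16 genes. Fos, an immediate-early transcription factor, was 8.74, 8.97 and 5.39 in PV and 8.29, 8.56 and 4.99 in SC, so it varied more between sets than between groups (difference 0.42, adjusted p = 0.683).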

How the data were processed

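RNA of 9 samples (PV, NPV and SC, 3 each) was measured on 1-colour Illumina bead arrays. The deposited intensity values with their detection p-values are, per the file headers, average bead signals without normalisation, made with BeadStudio 3 per the submitters' processing notes; a deposited table of the authors' normalised intensity values was used as an alternative. Its columns have medians of 80.59 to 80.65, values up to 65956 on a linear scale and the same rank order of probes as the unnormalised columns (rank correlation 1), and its normalisation is not stated. No genome build is named. Bead counts were not used, and for arrays the number of samples limits the precision.

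Intensities were background-corrected and quantile-normalised with neqc in limma 3.58.1 (R 4.3.3, background estimated through the detection p-values, offset 16) and taken to log2. The offset draws differences of dim probes towards 0. limma (lmFit, eBayes) was fitted to all 9 arrays with array number as a block. The 2-sided contrast PV minus SC was adjusted by Benjamini-Hochberg over the 18192 probes, with 4 residual degrees of freedom and a median SE of 0.146. The pairing comes from the numbers in the labels: deviations from the group means correlated at 0.564 to 0.874 in the 9 pairs of arrays with the same number and at -0.743 to 0.393 in the others. The code was tested on simulated data. Probes were named through accessions and RefSeq symbols (GRCm38.p6, for names only), a gene by its probe with the highest mean. Named genes are Glul, Slc1a2 and Rdh9, those past the threshold without overlap (up to 20 per direction), filled to 10 per direction by smallest p, and up to 4 per list by smallest p. The members and lists were chosen with earlier results of these data known. The alternatives were other background, offset, scaling, filter, probe and replicate choices, the authors' table and a fit without the block. The results of some single genes are not reported here.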

Additional observations from a re-analysis of the deposited data

How the results depend on the processing

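The count of 17 higher and 0 lower probes depended on the setting, while the direction of the marker genes did not in any alternative run. It was 44 higher without background correction, 41 higher and 1 lower with an offset of 50, 44 higher in the authors' normalised table, 75 higher with median scaling, 1 higher without the detection filter and 11 higher with 1 probe per gene. Under median scaling the median of all genes lay at 0.156, against -0.009 with quantile normalisation, and 94.9% of the probes at an unadjusted p under 0.05 were higher, against 51.6%. All 17 probes passed under median scaling and in the authors' table. Leaving out 1 array gave between 0 and 33 higher and between 0 and 1 lower probes. It gave differences of 1.343 to 1.615 for Slc1a2, 1.167 to 1.32 for Rdh9 and 1.338 to 1.794 for Glul. Without replicate 3 in any group 0 were higher (807 at an unadjusted p under 0.05), with 1.583, 1.201 and 1.63 for these genes.

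In the fit without the replicate block, which ignores the pairing, 0 probes passed (132 higher at an unadjusted p under 0.05), with unchanged differences of 1.502 for Slc1a2 (adjusted p = 1), 1.24 for Rdh9 (0.636) and 1.569 for Glul (1). With the 6 PV and SC arrays alone, a fit with fewer degrees of freedom, 0 were higher. The differences were 1.494 for Slc1a2 (adjusted p = 0.0602), 1.238 for Rdh9 (0.064) and 1.555 for Glul (0.089). Without the detection filter, with all 45281 probes in the fit, these genes kept their differences, at adjusted p-values of 0.0603, 0.0603 and 0.233. Why the adjusted p-values rose in these fits was not tested. Signs turned for genes near 0 that were never called. With median scaling these included Slc37a4 0.025, Tm4sf4 0.014 and Cycs 0.069. With arrays left out, ranges crossing 0 included -0.496 to 0.027 for Ppargc1a, -0.526 to 0.079 for Muc1, -0.008 to 0.385 for Csf3r, -0.021 to 0.218 for Ehhadh and -0.022 to 0.213 for Atp5a1, turned without PV 1, and -0.582 to 0.141 for Rps18, turned without SC 1. The cause was not tested. Dim probes, with detected levels down to 5.05 on the log2 scale, have compressed differences.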

Other observations

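Gadd45g, a stress-inducible gene, differed in a single array: it was 13.24, 13.55 and 9.99 in PV and 13.36, 13.51 and 13.40 in SC, so that PV 3 alone was low (difference -1.16, adjusted p = 0.851). Marco, a macrophage scavenger receptor, was 5.92, 5.61 and 8.24 in PV and 6.25, 6.20 and 6.39 in SC, with PV 3 alone high (difference 0.30, adjusted p = 0.960). Both were singled out after their values were seen.

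Set 3 differed from sets 1 and 2 in hepatocyte genes in both groups alike. Me1, malic enzyme, was 11.57, 11.30 and 4.79 in PV and 11.43, 11.04 and 4.61 in SC. It was not detected in set 3, where the lowest detected levels were 5.10 on PV 3 and 5.05 on SC 3. Alas1, the rate-limiting enzyme of haem synthesis, was 15.63, 15.89 and 11.92 in PV and 15.74, 15.88 and 12.05 in SC. Apoa4, an apolipoprotein, ran the other way, at 10.16, 10.22 and 14.21 in PV and 10.79, 10.30 and 14.40 in SC. Alas1 and Apoa4 lie outside the rule by which genes were named. The labels name no difference between sets.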
